A study of Mus musculus with 6 samples.

Results

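Integrins and laminins were described as 37 genes, 27 integrin and 10 laminin subunits, among 19938 genes tested on arrays of VPA-treated and control cells. They were chosen by symbol, as every gene tested that is named Itga or Itgb with a subunit number or letter and every gene named Lama, Lamb or Lamc with a number. Genes for proteins that bind integrins, and Itgbl1, were left out. The integrins comprised 18 alpha and 9 beta subunits, and the laminins 5 alpha, 3 beta and 2 gamma chains. Each gene was read from 1 probe set, the set of probes that measures a transcript on the array.

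The titles divide the 6 samples into 3 VPA and 3 control arrays, and the design text of the series calls the cells murine prostate cancer cells. VPA stands for valproic acid, a drug that inhibits class I histone deacetylases. The source, strain and cell type fields disagree with these titles: they call the VPA samples undifferentiated embryonic stem cells of strain Stra8-EGFP/Rosa26 and the control samples differentiated stem cells of strain 129SV. Every VPA minus control difference therefore rests on the titles. The cell line, the dose, the duration and what the control cells received are not stated in the labels, and nothing says whether the replicates came from separate cultures, so p-values may measure technical spread.

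Integrins are receptors made of an alpha and a beta chain that span the cell membrane, bind matrix proteins or other cells outside, and connect to the actin or keratin cytoskeleton inside. Laminins are secreted trimers of an alpha, a beta and a gamma chain that build the sheet of the basement membrane, and several integrins are their receptors. In the prostate, laminins line the base of the glands, and the integrin chains that hold epithelium to them are known to be altered in carcinoma.

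The values are on a log2 scale, so a difference of 1 is a doubling, and the medians of the arrays ran from 7.15 to 7.18. They carry no detection call, and probe sets differ in how brightly they respond, so a level shows neither presence nor absence. The gene named from each marker list below is that with the highest log2 value, a way to choose it and no comparison of expression between genes. Among 8 lists of cell type markers no gene passed the test described next. As background for counts by sign, 58.6% of all genes tested had a negative difference. The prostate luminal list, of which 7 of 9 genes were measured, averaged 5.78 to 5.85 in the VPA arrays and 5.76 to 5.98 in the control arrays, and Hoxb13 averaged 7.93 and 7.88. The fibroblast list averaged 9.08 to 9.28 with VPA and 9.13 to 9.29 in control, with Dcn at 14.03 and 14.10. Its 7 genes went both ways, with 3 positive differences, 0.21 for Col1a2, 0.20 for Col1a1 and 0.01 for Pdgfra. The 4 negative ones were -0.46 for Col3a1, -0.36 for Pdgfrb, -0.07 for Dcn and -0.01 for Lum. The embryonic stem cell list averaged 6.74 to 6.85 with VPA and 6.89 to 7.01 in control, with Sox2 at 11.26 and 11.58. The 11 genes of this list had 9 negative and 2 positive differences, the latter 0.11 for Klf4 and 0.00 for Dppa4. Klf4 averaged 10.33 with VPA and 10.22 in control. Pou5f1 averaged 5.27 and 5.63 in the same order, Nanog 6.14 and 6.35, Zfp42 4.22 and 4.36, and Esrrb 5.97 and 6.17. Krt15 of the basal list averaged 6.73 and 6.82, and Kdr of the endothelial list 9.05 and 8.76. The 5 endothelial genes had 2 positive differences, 0.42 for Tek and 0.29 for Kdr. Their 3 negative differences were -0.11 for Pecam1, -0.04 for Tie1 and -0.03 for Cdh5. Over all genes VPA replicate 3 correlated as closely with control replicate 3 (r = 0.9952) as with VPA replicate 2 (r = 0.9955), and control replicate 2 correlated with VPA replicate 2 at 0.9946 against 0.9947 with control replicate 3. Values without both of these arrays are therefore given for genes whose call or sign changes, and for Itga4, Itga6, Itga10, Itgav, Itgb1 and Itgb8, whose differences move by over 1.5 times. Other members with differences nearer 0 also moved by that factor, without a change of call.

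No integrin or laminin gene changed with VPA at a Benjamini-Hochberg adjusted p under 0.05 in limma's moderated test over all genes (0 of 37), where 2.34% of all genes did. At an unadjusted p under 0.05 there were 7 of the 37 genes, or 18.9%, against 18.1% of all genes tested. Of these, 3 had higher and 4 lower values with VPA (background 9.82% and 8.3% in these directions). The VPA and control values did not overlap in 9 genes, or 24.3%, against 23.1% of all genes, 3 of them higher and 6 lower with VPA (background 11.1% and 12%). These shares lay near the background. The median difference, VPA minus control, was -0.05 over the 37 genes and -0.035 over all genes, and the median size was 0.166 against 0.116. Differences ran from -0.40 for Itgb4 to 0.54 for Lama3, with standard errors from 0.0801 to 0.207, and 3 arrays per group limit the precision.

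**Figure D1:**
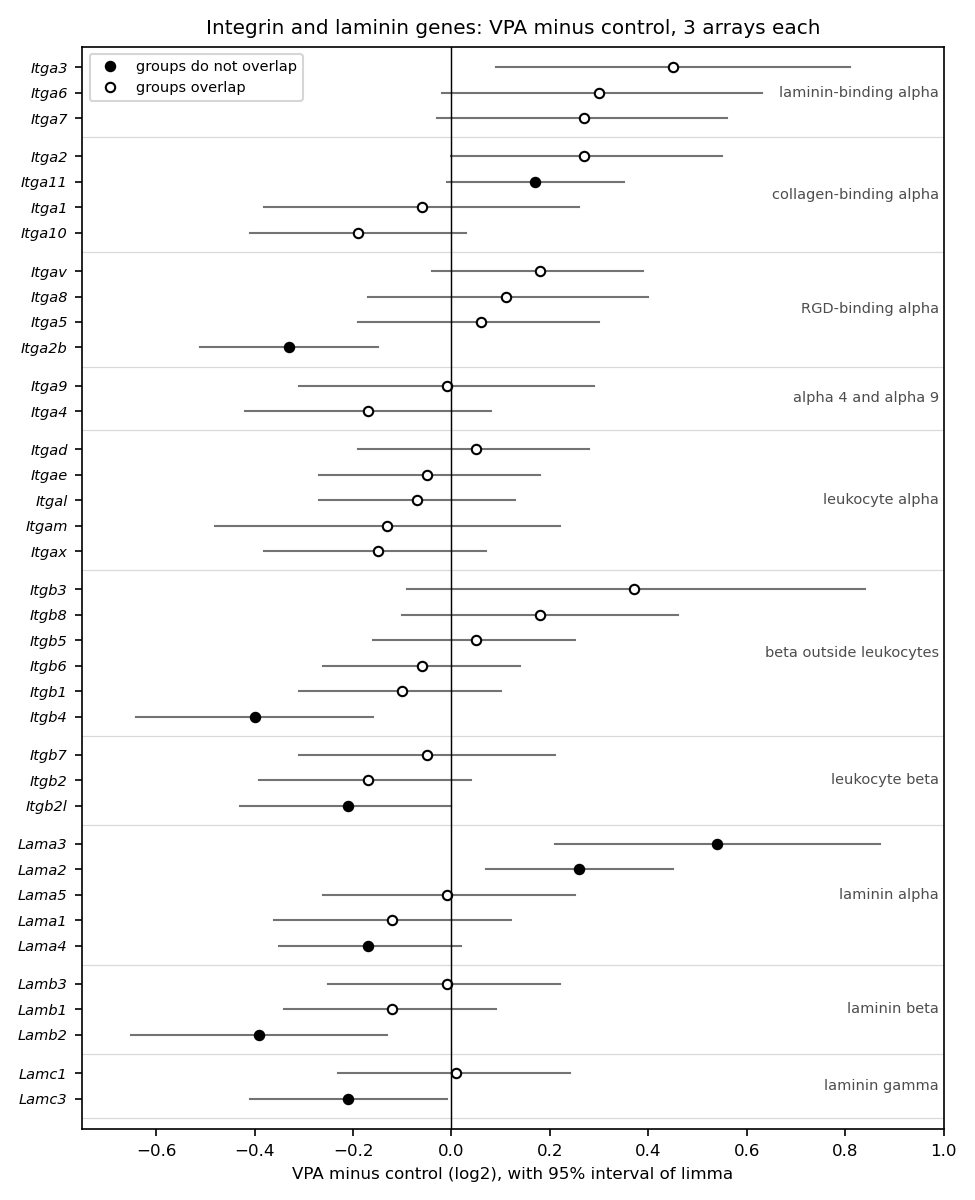
VPA minus control difference of each of the 37 genes on the log2 scale, grouped by the role of the subunit, with the 95% interval of limma. Filled points are the 9 genes whose VPA and control values did not overlap; Lama3 at 0.54 and Itgb4 at -0.40 are the ends of the range.

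**Figure D2:**
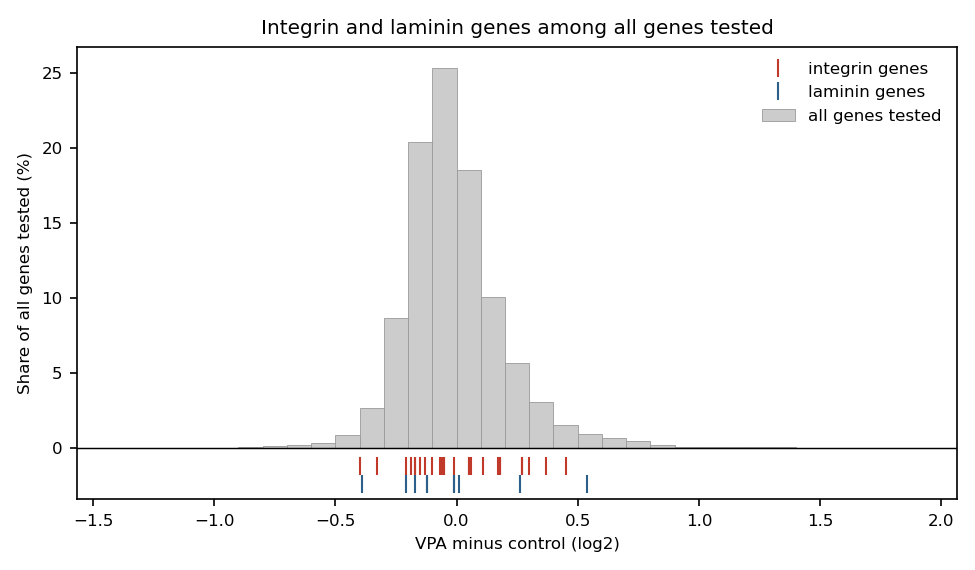
Share of the 19938 genes tested (bars, %) by their VPA minus control difference in bins on the log2 scale, with a tick for each integrin and each laminin gene below. The ticks lie between -0.40 and 0.54, inside the spread of all genes, which runs from -1.34 to 1.85.

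The integrin chains that bind laminin come first. Itga3, which pairs with Itgb1 and binds the laminins of epithelia, measured 11.36, 11.35 and 10.90 in VPA replicates 1, 2 and 3 and 10.66, 11.06 and 10.54 in control replicates 1, 2 and 3. VPA replicate 3 lay below control replicate 2, so the groups overlapped. Its difference was 0.45 (SE 0.162), a ratio of 1.37 with a 95% interval from 1.06 to 1.76, and it did not pass limma's test (adjusted p = 0.184). Without VPA replicate 3 and control replicate 2 the difference was 0.76, and it passed with an adjusted p of 0.00866, where 6.77% of all genes passed. That pair was chosen after seeing the data, because its arrays resembled the other group. Leaving it out can widen differences through that choice, so the pass is no support for a change.

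Itga6, a chain that pairs with Itgb1 or with Itgb4, measured 11.88, 11.92 and 11.54 with VPA against 11.19, 11.63 and 11.60 in control. VPA replicate 3 lay among the controls, and the difference of 0.30 (SE 0.143) did not pass (limma adjusted p = 0.3). It was 0.50 without VPA replicate 3 and control replicate 2 and 0.16 without control replicate 1. Itga7, best known as a laminin receptor chain of muscle, measured 11.39, 11.26 and 11.34 with VPA against 10.75, 11.18 and 11.26 in control. Control replicate 1 was the low array here, and the difference was 0.27 (SE 0.13, adjusted p = 0.32), or 0.11 without that array. All 3 laminin-binding alpha chains had positive differences, with a median of 0.30, and none passed. Over all genes 58.6% of the differences were negative.

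Itgb4, whose long cytoplasmic tail joins the hemidesmosome, the structure that ties epithelial cells to laminin, went the other way. It measured 8.15, 8.20 and 8.34 in the VPA arrays against 8.45, 8.68 and 8.77 in the control arrays. Each VPA array lay below each control array, by at least 0.11. The difference was -0.40 (SE 0.105), a ratio of 0.758 with a 95% interval from 0.643 to 0.893, and it did not pass over all genes (limma adjusted p = 0.0874). Leaving out each array in turn gave differences from -0.49 to -0.33 for Itgb4 and adjusted p from 0.0686 to 0.261.

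Other proteins of this attachment were read from a list of 11 hemidesmosome proteins and laminin receptors outside the integrin family, of which 0 passed, against 2.34% of all genes, and 1 had an unadjusted p under 0.05, against 18.1%. Cd151, a tetraspanin that accompanies laminin-binding integrins, measured 12.19, 12.17 and 12.05 with VPA against 12.40, 12.45 and 12.37 in control. Its groups did not overlap, and the difference was -0.27 (SE 0.0835, limma adjusted p = 0.13). Plec, which encodes plectin, the linker from Itgb4 to keratin filaments, differed by -0.18 (SE 0.0895, adjusted p = 0.333), also without overlap.

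Of the laminins themselves, 4 of 10 had an unadjusted p under 0.05, against 18.1% of all genes, and 5 of 10 did not overlap between the groups, against 23.1%. Whether laminins differ in this from integrins, with 3 and 4 of 27, was not tested. Lama3 encodes the alpha chain of the laminin that anchors skin and gland epithelium. It measured 7.66, 7.42 and 7.01 in the VPA arrays against 6.85, 6.84 and 6.78 in the control arrays. The control arrays lay close together (SD 0.04), the VPA arrays were spread (SD 0.33), and VPA replicate 3 came nearest to control. The difference of 0.54 (SE 0.146) is a ratio of 1.45 with a 95% interval from 1.16 to 1.83, and it did not pass (limma adjusted p = 0.0934). Without VPA replicate 3 Lama3 differed by 0.72 with an adjusted p of 0.0117, where 4.09% of all genes passed. Without control replicate 2 as well, a pair chosen after seeing the data, Lama3 differed by 0.73, with 0.0141, where 6.77% passed. The epithelial marker list of Cdh1, Epcam, Cldn4 and Krt19 averaged 7.02 to 7.26 with VPA and 6.87 to 6.97 in control. Krt19 and Epcam differed by 0.41 and 0.29, Cdh1 and Cldn4 by 0.03 and 0.01, and none of the 4 passed. The measured prostate luminal markers had 4 positive and 3 negative differences, among them -0.31 for Krt8, -0.21 for Krt18, 0.06 for Hoxb13 and 0.10 for Tmprss2. The basal markers had 1 positive difference, 0.04 for Krt14, and 3 negative ones, -0.11 for Krt5, -0.09 for Krt15 and -0.10 for Trp63. No gene of these 2 lists passed either, and 58.6% of all genes tested had a negative difference. The part of these genes in the Lama3 difference was not tested. In bulk RNA, fewer cells of a type and less RNA per cell cannot be told apart.

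Lamb3, the beta chain that joins Lama3, averaged 6.93 ± 0.19 in the VPA arrays and 6.95 ± 0.06 in the control arrays (SD, n = 3 each). Its difference was -0.01 with a 95% interval from -0.25 to 0.22. Lama2, the alpha chain of muscle and nerve basement membranes, measured 7.02, 7.04 and 7.18 with VPA against 6.84, 6.85 and 6.77 in control. Every VPA array lay above every control array, and the difference of 0.26 (SE 0.0855), a ratio of 1.2 with a 95% interval from 1.05 to 1.37, did not pass (limma adjusted p = 0.153).

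Lamb2 encodes the beta chain known from synapses and the kidney filter. It measured 10.10, 9.78 and 10.16 with VPA against 10.52, 10.36 and 10.33 in control. The VPA arrays were the lower 3, with replicate 2 the lowest. The difference was -0.39 (SE 0.116), a ratio of 0.765 with a 95% interval from 0.638 to 0.916 (limma adjusted p = 0.121). Lamb1, the more widespread beta chain, measured 11.72, 11.55 and 11.58 with VPA against 11.87, 11.66 and 11.71 in control. These groups overlapped, and its difference of -0.12 had a 95% interval from -0.34 to 0.09 (adjusted p = 0.514).

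Lamc1, the gamma chain of most laminins, measured 11.25, 10.96 and 10.93 with VPA against 11.06, 10.97 and 11.08 in control. VPA replicate 1 was the highest of the 6 arrays and the other 2 VPA arrays were the lowest. The difference of 0.01 (limma adjusted p = 0.972) had a 95% interval from -0.23 to 0.24, and its sign turned with the normalization. Lamc3, a gamma chain of narrower expression, measured 7.30, 7.18 and 7.24 with VPA against 7.49, 7.33 and 7.53 in control. Its groups were separated by 0.03, less than the spread within each, and the difference was -0.21 (SE 0.0893, adjusted p = 0.25).

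Lama5, the broadly expressed alpha chain of adult epithelial basement membranes, measured 10.77, 10.56 and 10.50 with VPA against 10.63, 10.78 and 10.44 in control. The difference of -0.01 (limma adjusted p = 0.98) had a 95% interval from -0.26 to 0.25. Lama4, a chain of vessel and mesenchymal basement membranes, averaged 9.28 ± 0.04 with VPA and 9.45 ± 0.07 in control (SD, n = 3 each). Its groups did not overlap, and the difference of -0.17 (SE 0.0831) did not pass (adjusted p = 0.328). Lama1, the alpha chain of early embryonic basement membranes, averaged 6.95 ± 0.12 and 7.06 ± 0.16 in the same order (adjusted p = 0.595).

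Other basement membrane genes were read from a list of 20, of which 0 passed, against 2.34% of all genes, and 3 had an unadjusted p under 0.05, against 18.1%. Agrn encodes agrin, a proteoglycan that binds laminin. It measured 9.41, 8.90 and 8.95 with VPA against 8.52, 8.53 and 8.54 in control. Every VPA array was above the controls, which had an SD of 0.01, and the difference was 0.55 (SE 0.13, limma adjusted p = 0.0622). Col4a4, a chain of type IV collagen, differed by 0.22 (SE 0.0795, adjusted p = 0.187).

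**Figure D3:**
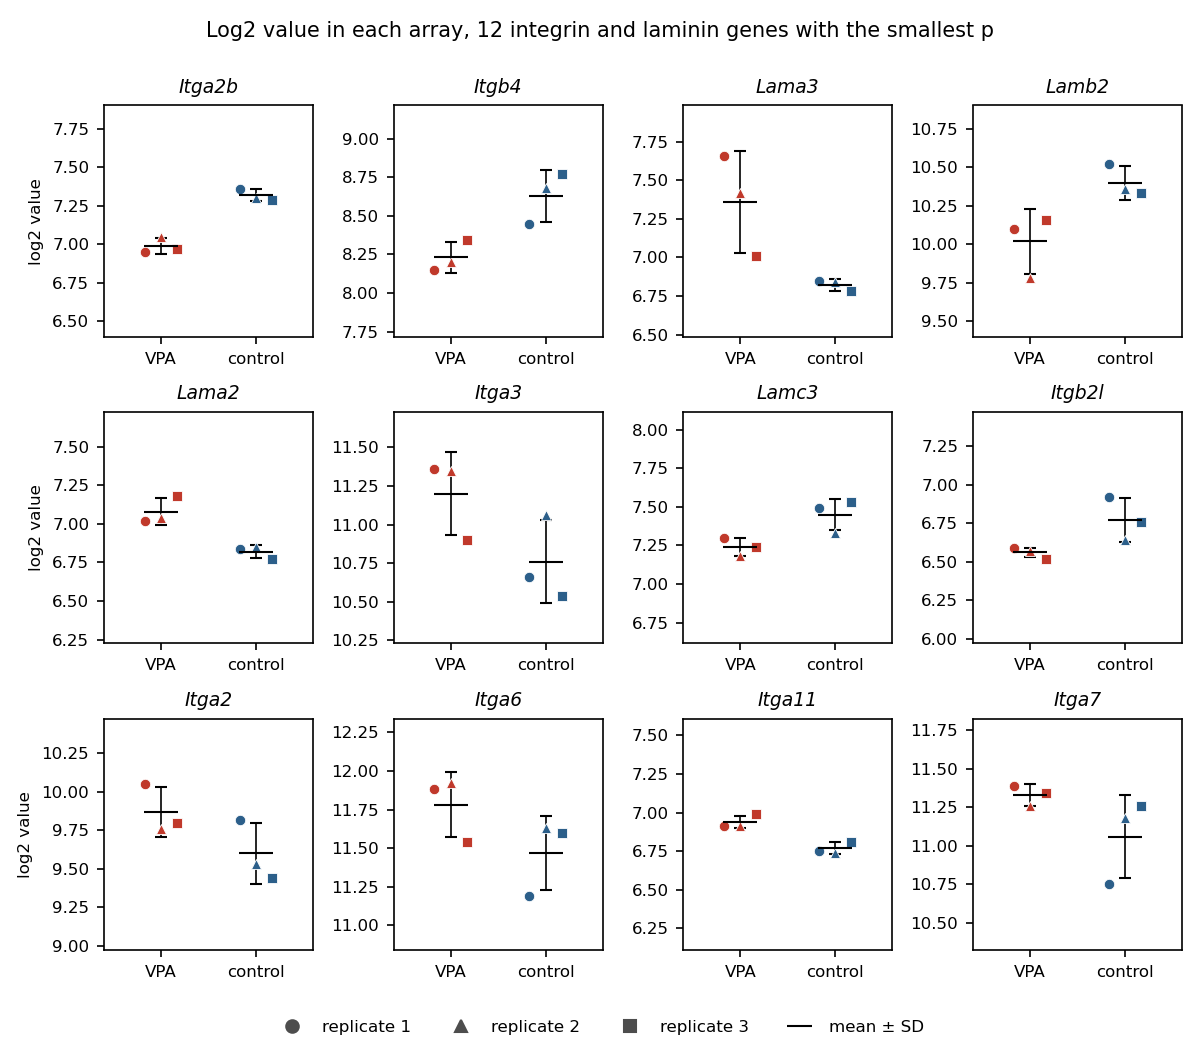
Log2 value in each array for the 12 integrin and laminin genes with the smallest p, VPA left of control, with a marker for each replicate and the mean and SD of 3 arrays. Every panel spans the same height; VPA replicate 3 is the lowest VPA array for Lama3 (7.01) and Itga3 (10.90).

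Integrin alpha chains that bind collagen had 2 positive and 2 negative differences among 4 genes. Itga2, a collagen receptor chain of epithelia and platelets, measured 10.05, 9.76 and 9.80 with VPA against 9.82, 9.53 and 9.44 in control. Control replicate 1 lay above VPA replicates 2 and 3, and the difference was 0.27 (SE 0.123, limma adjusted p = 0.281). Itga1, its neighbour on chromosome 13 with 0 protein-coding genes listed between them in RefSeq GRCm38.p6, averaged 10.11 ± 0.22 with VPA and 10.17 ± 0.23 in control (SD, n = 3 each), a difference of -0.06 (adjusted p = 0.842).

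Itga11, a receptor chain of fibroblasts for fibrillar collagen, measured 6.91, 6.91 and 6.99 with VPA against 6.75, 6.74 and 6.81 in control. The groups did not overlap, with an SD of 0.04 in each, and the difference of 0.17 (SE 0.0801) did not pass (limma adjusted p = 0.302). Itga10, known from cartilage, averaged 7.07 ± 0.09 with VPA and 7.26 ± 0.14 in control (SD, n = 3 each, adjusted p = 0.345). Its difference was -0.19, or -0.31 without VPA replicate 3 and control replicate 2 and -0.12 without control replicate 3.

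The next alpha chains recognise the tripeptide RGD, a motif of fibronectin, vitronectin and the latent form of TGF-beta. Itga2b, which forms the fibrinogen receptor of platelets and megakaryocytes with Itgb3, had the smallest p of the 37 genes. It measured 6.95, 7.05 and 6.97 in the VPA arrays against 7.36, 7.30 and 7.29 in the control arrays. The groups lay 0.24 apart, more than the spread within either (SD 0.05 and 0.04). The difference was -0.33 (SE 0.0808), a ratio of 0.797 with a 95% interval from 0.703 to 0.904, and it did not pass (limma adjusted p = 0.0712). It passed at 0.0494 where genes that reached a log2 value of 6 in fewer than 3 arrays were left out first, a setting in which 4.14% of all genes passed. Platelet markers, of which 3 of 4 were measured (Gp9, Pf4 and Ppbp), averaged 5.41 to 5.46 with VPA and 5.46 to 5.67 in control, and their part in the Itga2b difference was not tested.

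Itgb3, the partner of Itga2b and Itgav, had the widest spread of the 37 genes, with an SD of 0.39 in the VPA arrays and 0.33 in the control arrays. It measured 9.88, 9.94 and 9.23 with VPA against 9.31, 9.64 and 8.99 in control. Replicate 3 was the lowest array of each group. The difference of 0.37 (SE 0.207) had a 95% interval from -0.09 to 0.84 (limma adjusted p = 0.379). Without VPA replicate 3 and control replicate 2, a pair chosen after seeing the data, the difference was 0.76. Its adjusted p was then 0.0164, where 6.77% of all genes passed. Itga2b and Itgb3 thus differed in opposite directions, and neither passed.

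Itga3 and Itga2b, on chromosome 11 and each past the threshold in a setting above, are shown with the bases just upstream of their outermost RefSeq start in GRCm38.p6, to let the promoters of an epithelial and a platelet integrin chain be read side by side. Both lie on the minus strand, Itga3 at chr11:95076845-95076964 and Itga2b at chr11:102469884-102470033, and the sequences run from 5′ to 3′ toward the gene. Capitals mark the GC box GGGCGG, the letters bound by Sp1 family factors, searched on both strands as GGGCGG and CCGCCC.
Itga3: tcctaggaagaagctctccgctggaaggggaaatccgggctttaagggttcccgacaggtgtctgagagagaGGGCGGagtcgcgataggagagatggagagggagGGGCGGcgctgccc
Itga2b: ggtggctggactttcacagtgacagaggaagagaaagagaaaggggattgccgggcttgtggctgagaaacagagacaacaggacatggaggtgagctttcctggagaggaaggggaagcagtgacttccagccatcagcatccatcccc
The 120 bases of Itga3 hold 2 GC boxes and are 62.5% G or C, and the 150 bases of Itga2b hold 0 and are 54.7% G or C. RefSeq windows of 300 bases around a start were held for 24 of the 37 genes. Itgb3 and Itgb4, also on chromosome 11 and past the threshold in a setting, were not among them. Of the 24 genes, 11 contain a GC box, or 45.8%, against 38.2% of 27025 genes. TATAAA or its reverse complement TTTATA is in 0 of the 24, against 15.7% of the 27025. A match is a description of letters, and the arrays measured no binding.

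Itgav, the RGD-binding chain that pairs with the most beta chains, measured 12.22, 12.12 and 11.97 with VPA against 11.87, 12.04 and 11.88 in control. VPA replicate 3 lay below control replicate 2, and the difference was 0.18 (SE 0.0966, limma adjusted p = 0.373), or 0.30 without these 2 arrays. Itga5, the fibronectin receptor chain, averaged 10.53 ± 0.18 with VPA and 10.47 ± 0.09 in control (SD, n = 3 each), with a 95% interval of the difference from -0.19 to 0.30. Itga8, which binds nephronectin in the developing kidney, averaged 6.19 ± 0.22 and 6.08 ± 0.16 in the same order (adjusted p = 0.673).

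Itgb1, the shared beta chain of most laminin, collagen and fibronectin receptors, measured 12.63, 12.60 and 12.77 with VPA against 12.79, 12.66 and 12.86 in control. The groups overlapped, and the difference of -0.10 (SE 0.0928, limma adjusted p = 0.578) was a ratio of 0.93 with a 95% interval from 0.805 to 1.07. Without VPA replicate 3 and control replicate 2 it was -0.21. The remaining beta chains outside leukocytes, partners of Itgav, were close to 0 or within their spread. Itgb5, a vitronectin receptor chain, differed by 0.05 (SE 0.0927). Itgb6 and Itgb8, which serve in the activation of latent TGF-beta, differed by -0.06 (SE 0.0905) and 0.18 (SE 0.124), with adjusted p of 0.755 and 0.466. For Itgb8 the difference was 0.37 without VPA replicate 3 and control replicate 2 and 0.09 without control replicate 1.

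Itga4, the chain that binds Vcam1 and fibronectin, measured 11.90, 11.91 and 12.18 with VPA against 12.02, 12.15 and 12.31 in control. Replicate 3 was the highest array of both groups, and the difference was -0.17 (SE 0.111, limma adjusted p = 0.451), or -0.27 without VPA replicate 3 and control replicate 2 and -0.09 without control replicate 3. Itga9, a tenascin receptor chain of related sequence, averaged 6.18 ± 0.28 with VPA and 6.19 ± 0.08 in control (SD, n = 3 each).

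Integrin chains of leukocytes had small differences. Itgal, Itgam, Itgax and Itgad, which pair with Itgb2 on white blood cells, and Itgae, which pairs with Itgb7 on lymphocytes in epithelium, averaged from 5.74 to 7.98 over the 6 arrays. The value of 7.98 is that of Itgad, whose second probe set averaged 6.09. Differences of these alpha chains ran from -0.15 to 0.05, with limma adjusted p from 0.448 to 0.839. Itgam, Itgax and Itgad lie side by side on chromosome 7, with 0 protein-coding genes listed between them, and differed by -0.13, -0.15 and 0.05. The beta chains Itgb2 and Itgb7 differed by -0.17 (SE 0.0954) and -0.05 (SE 0.116).

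Itgb2l, a relative of Itgb2 known from mouse neutrophils, measured 6.59, 6.57 and 6.52 with VPA against 6.92, 6.64 and 6.76 in control. Its groups did not overlap but lay 0.05 apart, and the difference was -0.21 (SE 0.0947, limma adjusted p = 0.276). Leukocyte markers, all 8 measured, averaged 6.27 to 6.38 with VPA and 6.34 to 6.40 in control, and among them Ptprc, the pan-leukocyte phosphatase, averaged 5.51 and 5.74. The macrophage gene Cd68 averaged 8.45 ± 0.46 and 8.24 ± 0.43 (SD, n = 3 each). Their part in the differences of these integrin chains was not tested.

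Beyond the receptors and laminins, 5 of 98 genes of integrin ligands, cytoplasmic partners and basement membrane proteins passed limma's test over all genes, 4 higher and 1 lower with VPA (background 1.71% and 0.632%). The lists were written with earlier results of these data known, so no excess over all genes can be read from them. Among 13 integrin ligands on cell surfaces 2 rose, against 1.71% of all genes, and 11 did not pass. Jam2, a junctional adhesion molecule, measured 10.21, 9.75 and 9.39 with VPA against 8.72, 8.88 and 8.51 in control. All VPA arrays were above the controls, and Jam2 rose 2.12-fold with a 95% interval from 1.59 to 2.83 (adjusted p = 0.023). Leaving out VPA replicate 1 or 2 brought the adjusted p of Jam2 to 0.058 and 0.084, and leaving out control replicate 1 or 3 brought it to 0.0934 and 0.084. Thy1, a glycoprotein bound by integrins with the Itgb3 chain, rose by 0.99 on the log2 scale (SE 0.122, adjusted p = 0.00973) and was the 1 gene of the 5 that passed whichever single array was left out. Vcam1, the ligand of Itga4, averaged 12.46 with VPA and 12.85 in control and did not pass (adjusted p = 0.0665).

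Among 23 measured secreted ligands other than laminins 1 rose, against 1.71% of all genes, and 22 did not pass. Tgfb3, a growth factor whose latent form carries the RGD motif, measured 11.05, 11.13 and 10.97 with VPA against 10.32, 10.51 and 10.23 in control. The groups lay 0.46 apart, and Tgfb3 rose 1.62-fold with a 95% interval from 1.39 to 1.89 (limma adjusted p = 0.0139). Tgfb3 no longer passed with VPA replicate 1 or 2 left out (0.058 and 0.0608) or with control replicate 1 or 3 left out (0.0672 and 0.0534).

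Of 31 measured cytoplasmic partners of integrins 1 rose (background 1.71%), 1 fell (background 0.632%) and 29 did not pass. Ptk2b, a kinase related to focal adhesion kinase, measured 8.53, 8.27 and 8.16 with VPA against 7.63, 7.95 and 7.48 in control, and rose 1.55-fold (limma adjusted p = 0.0479). Tgfb1i1, which encodes Hic-5, a paxillin-like adaptor of focal adhesions, measured 9.01, 9.14 and 9.59 with VPA against 10.17, 9.79 and 9.97 in control. It fell by 0.73 on the log2 scale (SE 0.156, adjusted p = 0.0477). With VPA replicate 1 or 2 left out the adjusted p was 0.168 and 0.139 for Ptk2b and 0.165 and 0.173 for Tgfb1i1. With control replicate 1 or 3 left out it was 0.171 and 0.148 for Ptk2b and 0.174 and 0.128 for Tgfb1i1, and a second quantile normalization gave 0.0507 for Tgfb1i1.

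**Figure D4:**
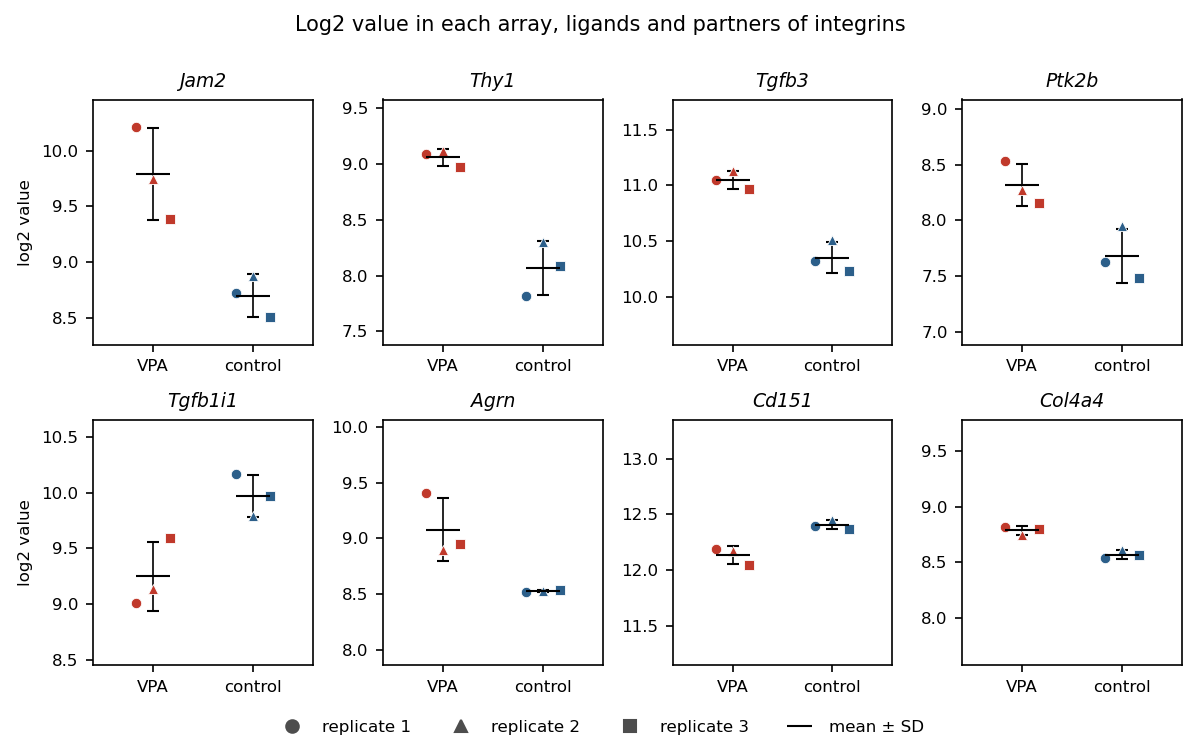
Log2 value in each array for 8 ligands and partners of integrins or laminins, VPA left of control, with a marker for each replicate and the mean and SD of 3 arrays. Jam2, Thy1, Tgfb3 and Ptk2b rose and Tgfb1i1 fell; Agrn, Cd151 and Col4a4 did not pass.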

How the data were processed

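Per the labels' protocols, Trizol-isolated RNA was treated with DNase I, labelled with biotin and hybridised to Affymetrix Gene Mouse 1.0 ST arrays. The submitters' processing notes name RMA and Affymetrix Expression Console, without versions, and the authors deposited log2 values made with them. RMA brings the arrays to a common distribution, so a shift of most transcripts one way would not show. Samples were grouped by title.

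The table held 35556 probe sets, and 21789 of them carried exactly 1 symbol in the platform annotation. For each of 19938 genes the probe set with the highest mean over the 6 arrays was used. Itgad had a second probe set. Lookup by Entrez identifier in RefSeq GRCm38.p6 changed 0 symbols. VPA was compared with control in limma 3.58.1 (R 4.3.3; lmFit and eBayes), with no other term, two-sided, and p-values were adjusted by Benjamini-Hochberg across all genes tested. The procedure was tested on simulated data with changes larger than any integrin or laminin difference here. How well it finds differences of the size reported was not tested. Tables and figures were made in Python 3.11.15. Values per array are given for the 12 integrin and laminin genes with the smallest p, for the 3 integrin and 3 laminin genes with the highest means, and for Itgb3, chosen after its values were seen. From each list of related genes up to 3 changed genes in each direction are named, or else the 2 with the smallest p. Each marker list is shown by its gene with the highest log2 value, and Vcam1, Ptprc and the further marker genes were added outside this rule. Means chose the genes and order none. The genes and lists were chosen with earlier results of these data known. The alternatives changed the normalization, filter, prior, weights, probe set rule, block and arrays used.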

Additional observations from a re-analysis of the deposited data

How the results depend on the processing

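The count of integrin and laminin genes past the threshold, 0, became 1 with the low-value filter (Itga2b), 0 to 1 with each array left out in turn (Lama3 without VPA replicate 3) and 3 without VPA replicate 3 and control replicate 2, a pair chosen after seeing the data (Lama3, Itga3 and Itgb3). With the replicate block it was 3: Lama3 at 0.54 (adjusted p = 0.027), Itgb4 at -0.40 (0.0286) and Itga3 at 0.45 (0.0355), where 6.01% of all genes passed. The replicate numbers of the titles are not stated to pair the samples. Deviations from the group means correlated over genes at 0.08412 for the replicates numbered 1, 0.4507 for those numbered 2 and 0.2837 for those numbered 3, and control replicate 1 correlated more closely with VPA replicate 3, at 0.2001.

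Over all genes the count of 467 was 1199 with the replicate block, 714 with array weights, 2 of 35556 with all probe sets tested, 20 to 815 with each array left out and 1349 without the pair. Of the 98 ligand and partner genes, 5 passed as reported and 0 with all probe sets tested. With each array left out 1 to 8 passed, and 10 without the pair. In the same order, the counts over all genes were 467, 2 of 35556, 20 to 815 and 1349. Of Jam2, Ptk2b, Tgfb1i1, Tgfb3 and Thy1, the adjusted p with all probe sets tested was 0.165, 0.209, 0.211, 0.131 and 0.119.

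Of the 37 genes, 24 kept the sign of their difference in all 15 alternatives, and 13 turned in at least 1, without passing the test there. With a second quantile normalization Lamc1 was at -0.01, Itgad at -0.0021, Itga9 at 0.06, Itgae, Itgb6 and Lamb3 at 0.02 each and Itgb7 at 0.0026. Median centring put Lamc1 at -0.01, and array weights put Lamc1 at -0.0029 and Lama5 at 0.01. Without the pair Lama5 was at 0.13, Itga1 at 0.12, Itga8 at -0.07 and Itgad at -0.08. With each array left out in turn the differences ran from -0.09 to 0.07 for Lamc1 and Lama5, from -0.20 to 0.06 for Itga1, from -0.00085 to 0.16 for Itga5, from -0.02 to 0.20 for Itga8, from -0.15 to 0.13 for Itga9, from -0.06 to 0.10 for Itgad, from -0.14 to 0.02 for Itgae, from -0.30 to 0.06 for Itgam, from -0.01 to 0.12 for Itgb5, from -0.14 to 0.04 for Itgb7 and from -0.09 to 0.09 for Lamb3. The cause was not tested. Without a measure of signal over background, low levels such as that of Itgb6 cannot be told from no signal.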
